A study of Rattus norvegicus with 4 samples.

Results

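Matrix metalloproteinases are the enzymes described here, as the messenger RNA levels of 10 genes: Mmp2, Mmp3, Mmp8, Mmp9, Mmp10, Mmp11, Mmp12, Mmp13, Mmp14 and Mmp19. They were the rows of a table of 17899 rat genes that carried these symbols, and all 10 were found. The tissue was synovium, the lining of the joint, from rats with osteoarthritis. AdMSC 1 was the library from synovium injected with human AdMSCs, SyMSC 1 the library from synovium injected with human SyMSCs, and PBS 1 and PBS 2 came from synovium injected with PBS, a salt buffer. The abbreviations are those of the labels and commonly stand for mesenchymal stem cells of adipose and synovial origin. The cells were human and the host was rat; strain, age, the way osteoarthritis was induced and any drug that suppresses rejection are not stated in the sources used here. Synovium was taken a day after the cells, and the interval after PBS is not given. By title PBS 1 (Ad mix) goes with AdMSC 1 (Ad inj) and PBS 2 (Sy mix) with SyMSC 1 (Sy inj). The treatment label of both mix libraries is injection with PBS, and the titles do not say what was mixed. Whether the PBS libraries held anything besides PBS-injected synovium therefore cannot be told. Whether each library came from an animal of its own is not stated, so the p-values reflect the spread among these 4 libraries, which could be technical.

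Matrix metalloproteinases are zinc-dependent enzymes that cut the proteins of the extracellular matrix. Most are secreted as inactive precursors, and some sit in the cell membrane. They become active when another protease removes a propeptide, and tissue inhibitors of metalloproteinases (Timp genes) block them. In arthritic joints synovial fibroblasts, macrophages and neutrophils are known sources. Collagenases open the collagen triple helix, gelatinases cut the unfolded chains, and stromelysins cut proteoglycans and activate other precursors.

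After injection of either cell type the transcript pool moved from Mmp2 towards Mmp3. Mmp3, Mmp10 and Mmp13 rose between 4.56-fold and 8.74-fold, Mmp2 fell to 0.330 of its PBS mean, and Mmp14 and Mmp19 lay within 1.2-fold of their PBS means. Values were TPM (shares of a library's transcripts, corrected for gene length). Mean ± SD is over n = 2 libraries in each arm. The injected arm joins 1 library of each cell source, so its SD, and the SE and p-values, mix cell source with library. Log2 changes are of TPM + 1, which understates the change of low genes. With limma over all tested genes and Benjamini-Hochberg adjustment, 3 of the 10 members were called higher and 1 lower at an adjusted p under 0.05. Over all 13371 tested genes 48.4% were called (23.7% higher, 24.7% lower), so 4 of 10 is no more than the background. The same shares are the background for the counts of called genes in the lists below. Both injected libraries lay above both PBS libraries for 6 members and below them for 1, against 39.5% and 39.4% of all tested genes (78.8% in all). The median log2 change was 1.12 over the members and 0.0009 over all tested genes.

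**Figure D1:**
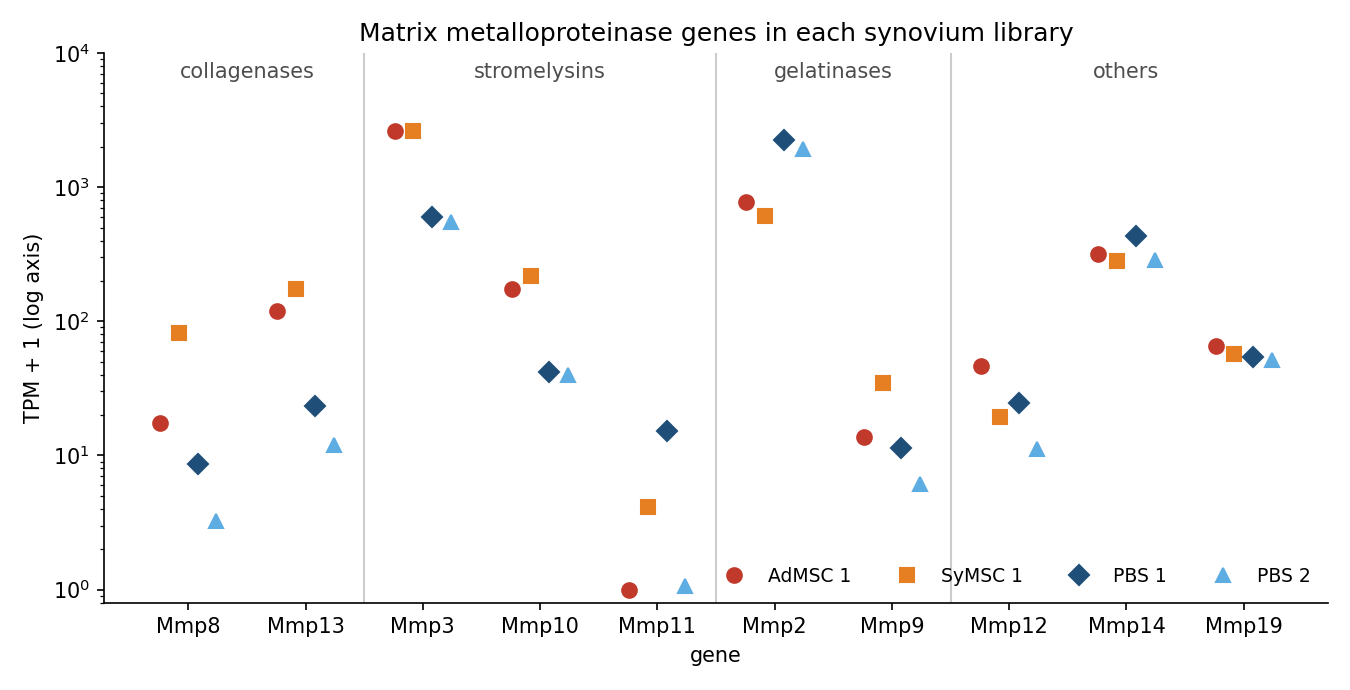
TPM + 1 of the 10 genes (log axis) in each of the 4 libraries, grouped by enzyme class; each point is 1 library. Mmp3 stands at 2605 and 2608 TPM in the injected libraries and at 594 and 550.0 TPM with PBS, and Mmp2 at 770.2 and 611 against 2261 and 1931 TPM.

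Of the 10 members, 5 lie side by side in the rat genome. In the RefSeq gene order of the assembly GRCr8 a run of 10 metalloproteinase genes, broken by 2 pseudogenes, reads Mmp13, Mmp12, Mmp1b, Mmp3, Mmp1, Mmp10, Mmp8, Mmp27, Mmp20 and Mmp7. The 5 members in it were higher in the injected library of both title pairs, and both injected libraries lay above both PBS libraries for 4 of them (Mmp12 overlapped), where 43.3% and 39.5% of all tested genes did so. Of the 5 members elsewhere 2 were higher in both pairs. Summed TPM of the 5 clustered members was 2960 (AdMSC 1), 3097 (SyMSC 1), 689 (PBS 1) and 612 (PBS 2). Of the cluster genes that are no members, Mmp7 was higher in both injected libraries, Mmp27 (0.43, 0, 0.31 and 1.83 TPM in the same order) and Mmp1b (0.04, 0.03, 0.37 and 0 TPM) overlapped between the arms, and Mmp1 was listed at 0 in 3 libraries. The grouping by position was made after the values were seen and was not tested.

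The sequences just before the transcript start were compared because AP-1, a dimer of Fos and Jun proteins that cytokines activate, is a known regulator of several of these genes. RefSeq promoters (GRCr8) were at hand for 6 of the 10 members, and not for Mmp2, Mmp9, Mmp14 and Mmp19. The 90 bases from 110 to 21 bases before the start are printed here 5′ to 3′ on the gene's strand. Capitals mark matches, on either strand, of the AP-1 letters TGAGTCA, of the TATA letters TATAAA and of the GC box letters GGGCGG. A match on the other strand appears as its reverse complement, as for AP-1 in Mmp13 and TATA in Mmp8.
Mmp13: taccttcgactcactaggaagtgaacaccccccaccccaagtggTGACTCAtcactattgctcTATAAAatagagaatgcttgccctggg
Mmp12: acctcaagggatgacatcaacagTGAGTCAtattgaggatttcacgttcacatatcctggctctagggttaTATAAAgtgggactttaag
Mmp3: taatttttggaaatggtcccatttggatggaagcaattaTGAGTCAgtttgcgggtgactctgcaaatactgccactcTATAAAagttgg
Mmp10: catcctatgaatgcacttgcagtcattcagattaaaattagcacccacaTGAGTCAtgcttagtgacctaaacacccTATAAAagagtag
Mmp8: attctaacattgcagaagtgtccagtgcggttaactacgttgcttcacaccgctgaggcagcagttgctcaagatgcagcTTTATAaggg
Mmp11: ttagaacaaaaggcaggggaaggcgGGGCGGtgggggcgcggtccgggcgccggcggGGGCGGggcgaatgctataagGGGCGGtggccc
All 6 lie on the plus strand. The windows are chr8:12782719-12782808 for Mmp13, chr8:12866542-12866631 for Mmp12, chr8:12925171-12925260 for Mmp3, chr8:12974597-12974686 for Mmp10, chr8:13008780-13008869 for Mmp8 and chr20:12730174-12730263 for Mmp11. The AP-1 letters stood in 4 of the 6 windows, beginning 61 (Mmp10), 66 (Mmp13), 71 (Mmp3) and 87 (Mmp12) bases before the start, and in 1.42% of the 33469 RefSeq promoter windows of this length. The TATA letters stood in 5 of the 6 (5.40% of all windows), and the GC box letters in Mmp11 alone among the 6 (19.9% of all windows). The letters AGGAAG, known from PEA3 sites and also searched on both strands, stood in the Mmp13 window (12.1% of all windows). No match overlapped another. Of 119 tested genes with the AP-1 letters in this window, 30.3% were called higher and 31.1% lower by limma, beside 24.1% and 23.9% of 10427 tested genes without them. Their median log2 change was -0.02, so the letters went with no common direction across genes.

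**Figure D2:**
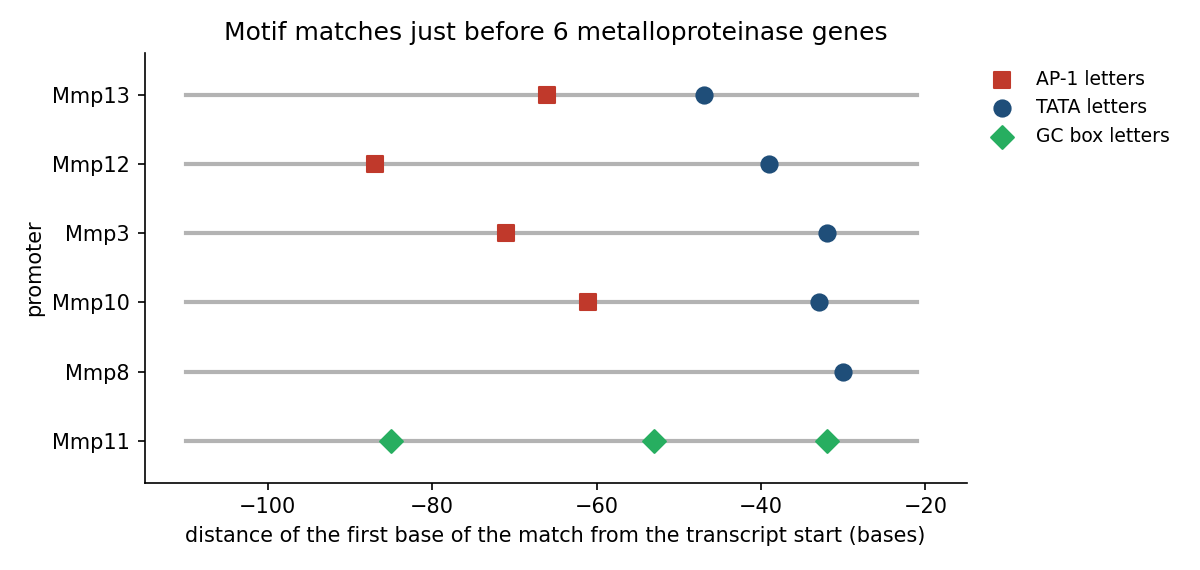
Position of the first base of each match before the transcript start (x axis, in bases) in the 6 promoters (rows); grey lines are the 90 bases searched. The AP-1 letters (red squares) lie between 61 and 87 bases before the start in Mmp10, Mmp13, Mmp3 and Mmp12, upstream of the TATA letters (blue circles), while Mmp8 has the TATA letters and Mmp11 has 3 GC box matches (green diamonds).

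Stromelysin 1, the product of Mmp3 (gene ID 171045), cuts proteoglycans and activates collagenase precursors. Mmp3 stood at 2605 TPM (AdMSC 1), 2608 (SyMSC 1), 594 (PBS 1) and 550.0 TPM (PBS 2). The injected libraries differed from each other by far less than from either PBS library. Mmp3 rose from 572 ± 30.9 to 2606 ± 1.92 TPM, 4.56-fold (log2 change 2.19, SE 0.12, limma adjusted p = 0.000246). Mmp10 (gene ID 117061) encodes stromelysin 2, with a similar range of substrates. It stood at 174 TPM (AdMSC 1), 217 (SyMSC 1), 41.1 (PBS 1) and 38.4 TPM (PBS 2), with no overlap between the arms. The rise was from 39.8 ± 1.88 to 196 ± 29.8 TPM, 4.92-fold (log2 change 2.26, SE 0.15, limma adjusted p = 0.000313). Mmp3 and Mmp10 are close paralogs, and their reads could be divided between them by a counting step that is not given in the sources used here. Mmp3 was between 12.04 and 14.93 times as abundant as Mmp10 in all 4 libraries. Mmp11 (gene ID 25481) encodes stromelysin 3, which differs from the others in being activated inside the cell by furin. It was listed at 0 TPM (AdMSC 1), 3.13 (SyMSC 1), 14.3 (PBS 1) and 0.07 TPM (PBS 2). PBS 1 alone was above 5 TPM, and the arms overlapped (log2 change -0.99, SE 1.86, limma adjusted p = 0.702).

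Among the collagenases, Mmp13 (gene ID 171052) encodes collagenase 3, known for cleaving type II collagen of cartilage. Mmp13 stood at 118 TPM (AdMSC 1), 174 (SyMSC 1), 22.4 (PBS 1) and 10.97 TPM (PBS 2). Both injected libraries were several times higher than both PBS libraries. It rose from 16.7 ± 8.11 to 146 ± 39.1 TPM, 8.74-fold, the largest log2 change of the called members (3.11, SE 0.39, limma adjusted p = 0.00487). The call held with each library left out, closest to the threshold without SyMSC 1 (adjusted p = 0.0479). Mmp8 (gene ID 63849), neutrophil collagenase, is stored in the granules of neutrophils. It stood at 16.4 TPM (AdMSC 1), 81.2 (SyMSC 1), 7.68 (PBS 1) and 2.25 TPM (PBS 2). The arms did not overlap, but SyMSC 1 was far above AdMSC 1. The log2 change of 2.83 (SE 1.09, 95% interval -0.62 to 6.28) did not pass (limma adjusted p = 0.128), and it was 1.71 without SyMSC 1 and 3.95 without AdMSC 1. Of 8 chondrocyte genes 6 were lower in both injected libraries than in both PBS libraries, against 39.4% of all tested genes. Among the 6, Col9a1 and Cnmd stayed at or below 0.33 and 0.54 TPM and were not tested. Of the 4 tested, 2 were called lower by limma, against 24.7% of all tested genes. Acan, the cartilage proteoglycan aggrecan, stood at 15.2, 6.59, 47.4 and 25.2 TPM in AdMSC 1, SyMSC 1, PBS 1 and PBS 2. Col2a1, the chain of type II collagen, went the other way at low values, with 0.71, 2.50, 0.58 and 0.53 TPM in the same order. The part of cartilage RNA in the Mmp13 values was not tested.

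Of the neutrophil markers 6 of 14 tested were called higher by limma, against 23.7% of all tested genes, and 8 did not pass. Their summed TPM was 2714 (AdMSC 1), 4913 (SyMSC 1), 483 (PBS 1) and 195 (PBS 2), the same order as Mmp8. Among the defining markers Csf3r, the receptor for a neutrophil growth factor, stood at 418, 538, 4.73 and 11.7 TPM in AdMSC 1, SyMSC 1, PBS 1 and PBS 2. Cxcr1 was listed at 0 in both PBS libraries and Ltf in 3 libraries (0.05 TPM in SyMSC 1). The level of Mmp8 relative to single markers moved both ways: its ratio to 4 of the 14 markers (Csf3r among them) was lower in both injected libraries than in both PBS libraries, to 6 it was higher, and to 4 it overlapped. Mmp8 equalled 0.604% and 1.65% of the summed marker TPM in AdMSC 1 and SyMSC 1, and 1.59% and 1.16% in PBS 1 and PBS 2. The granule genes Mpo, Camp and Ngp, named after their values were seen, were higher in PBS 1 and SyMSC 1 than in AdMSC 1 and PBS 2, and so were the red cell genes, with summed TPM of 21697 and 11233 against 5309 and 7665. Lcn2 and Fcnb, also granule genes, were higher in both injected libraries, with 131, 463, 57.7 and 48.7 TPM and with 114, 176, 40.9 and 13.2 TPM in AdMSC 1, SyMSC 1, PBS 1 and PBS 2. The part of neutrophils and of blood in the Mmp8 values was not tested. In bulk tissue, fewer cells of a type and less RNA per cell cannot be told apart.

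The gelatinases parted. Mmp2 (gene ID 81686) encodes gelatinase A, a product of fibroblasts and the most abundant of the 10 transcripts with PBS. It stood at 770.2 TPM (AdMSC 1), 611 (SyMSC 1), 2261 (PBS 1) and 1931 TPM (PBS 2). Both injected libraries lay below both PBS libraries. Mmp2 fell from 2096 ± 234 to 691 ± 112 TPM, so that the PBS mean was 3.03 times the injected mean (log2 change -1.60, SE 0.16, limma adjusted p = 0.000929). Mmp9 (gene ID 81687) encodes gelatinase B, found in neutrophils, macrophages and osteoclasts. It stood at 12.6 TPM (AdMSC 1), 33.8 (SyMSC 1), 10.3 (PBS 1) and 5.17 TPM (PBS 2). AdMSC 1 was barely above PBS 1, and SyMSC 1 stood apart. The log2 change of 1.38 (SE 0.61) did not pass (limma adjusted p = 0.146). It passed without AdMSC 1 (2.06, adjusted p = 0.0312) and when the cell sources were fitted as separate groups (adjusted p = 0.0417). It fell to 0.70 without SyMSC 1 (adjusted p = 0.256).

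Markers of fibroblasts and of vessels were lower where Mmp2 was lower. Of 11 sublining fibroblast genes 9 were called lower by limma and 2 did not pass (median log2 change -1.66), and their summed TPM went from 34881 and 28040 in PBS 1 and PBS 2 to 12696 and 9059 in AdMSC 1 and SyMSC 1. Mmp2 equalled 6.07% and 6.75% of that sum in AdMSC 1 and SyMSC 1, and 6.48% and 6.89% in PBS 1 and PBS 2, so the share overlapped between the arms. In every library the collagen genes Col1a1 and Col3a1 were the largest terms of that sum, so the share mainly sets Mmp2 against them. Its ratio to single markers was lower in both injected libraries than in both PBS libraries for 5 of the 11 (Dcn and Pdgfra among them), higher for 2 (Cxcl12 and Cd34) and overlapping for 4. All 7 endothelial and all 6 mural (vessel wall) markers were called lower as well, with median log2 changes of -1.996 and -1.768. By limma 2 of 6 skeletal muscle, 2 of 5 adipocyte and 2 of 4 mast cell genes tested were also called lower, and 0 higher. Their median log2 changes were -2.916, -1.196 and -1.464. Lower values were thus not particular to fibroblasts and vessels. Lining fibroblast genes, the layer known for Mmp3, were called lower in 6 of 9 cases by limma, and 3 did not pass. Prg4, which encodes the joint lubricant lubricin, stood at 4192, 2448, 3930 and 3765 TPM in AdMSC 1, SyMSC 1, PBS 1 and PBS 2. None of the 9 was higher in both injected libraries than in both PBS libraries. With the 4.56-fold rise of Mmp3, its ratio to each of the 9 was therefore higher in both injected libraries, and these ratios add no separate result. The ratio of Mmp3 to Prg4 was 0.621 and 1.07 in AdMSC 1 and SyMSC 1, and 0.151 and 0.146 in PBS 1 and PBS 2. The part of cell make-up in these results was not tested.

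The remaining members showed no call. Mmp14 (gene ID 81707) encodes a membrane enzyme that cuts fibrillar collagen and activates the Mmp2 precursor together with Timp2. It stood at 314 TPM (AdMSC 1), 282 (SyMSC 1), 429 (PBS 1) and 284 TPM (PBS 2). PBS 1 was the highest and the other three lay close together. The log2 change was -0.23 (95% interval -0.74 to 0.29, limma adjusted p = 0.405), and without PBS 1 it was 0.07. Mmp14 equalled 40.8% and 46.2% of the Mmp2 level in AdMSC 1 and SyMSC 1, and 18.97% and 14.7% in PBS 1 and PBS 2. Mmp12 (gene ID 117033) encodes macrophage elastase. It stood at 45.6 TPM (AdMSC 1), 18.3 (SyMSC 1), 23.7 (PBS 1) and 10.1 TPM (PBS 2). The arms overlapped, and the Ad-titled libraries were each above their Sy-titled counterparts (log2 change 0.86, SE 0.66, limma adjusted p = 0.358). The change was 0.22 without AdMSC 1, 0.28 without PBS 2, 1.43 without PBS 1 and 1.49 without SyMSC 1. Macrophage genes were called higher in 10 of 12 cases by limma, and 2 did not pass, with summed TPM of 30694, 39782, 10286 and 11542 in AdMSC 1, SyMSC 1, PBS 1 and PBS 2. The ratio of Mmp12 to single macrophage markers was lower in both injected libraries for 4 of the 12 and overlapped for 8 (Cd68 among them). Mmp19 (gene ID 304608), a secreted enzyme that cuts basement membrane proteins, had the narrowest range of the 10, with 64.2 TPM (AdMSC 1), 56.0 (SyMSC 1), 53.1 (PBS 1) and 50.3 TPM (PBS 2). Its log2 change of 0.21 (95% interval -0.11 to 0.53) did not pass (limma adjusted p = 0.225).

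Because TPM is corrected for length, the 10 genes can be set beside each other within a library, with a limit. Col1a2 stood at 0 to 5.09 TPM where Col1a1, the other chain gene of type I collagen, stood at 2257 to 12541 TPM. The level of a single gene in this data can thus be far off, and the cause was not tested. The summed TPM of the 10 metalloproteinase genes was 4121 (AdMSC 1), 4084 (SyMSC 1), 3457 (PBS 1) and 2882 (PBS 2). With PBS, Mmp2 made up 65.4% and 67.0% of this sum and Mmp3 17.2% and 19.1%. After injection Mmp3 made up 63.2% (AdMSC 1) and 63.8% (SyMSC 1), and Mmp2 18.7% and 15.0%. The order of the leading genes was therefore exchanged. Collagenases made up 3.27% and 6.24% after injection and 0.871% and 0.459% with PBS. The ratio of Mmp3 to Mmp2, which no scaling of a library can alter, was 3.38 (AdMSC 1), 4.26 (SyMSC 1), 0.263 (PBS 1) and 0.285 (PBS 2). An exact two-sided permutation test over the libraries gave p = 0.333, the smallest that 2 against 2 libraries allow.

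**Figure D3:**
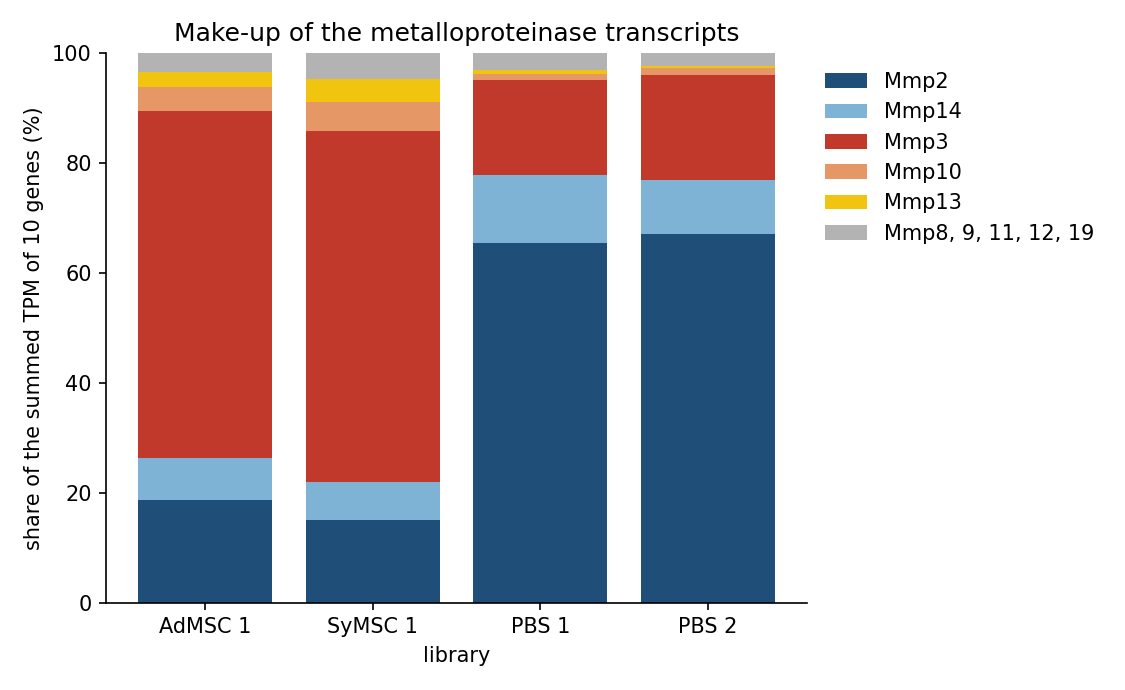
Share of each gene in the summed TPM of the 10 metalloproteinase genes (y axis, percent) in each library (1 stacked bar per library). Mmp2 (dark blue) takes 65.4% and 67.0% in the PBS libraries, and Mmp3 (red) takes 63.2% and 63.8% in the injected ones.

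Of the other family genes, 11 were in the table and 6 passed the filter on low values. Mmp7 (matrilysin) and Mmp25, a membrane enzyme of leukocytes, were called higher by limma. Mmp25 went from 1.43 and 1.29 TPM in PBS 1 and PBS 2 to 5.01 and 6.50 in AdMSC 1 and SyMSC 1, and Mmp7 from 0.64 and 0.30 to 1.87 and 2.29. The membrane-bound Mmp15, Mmp16 and Mmp17 and the membrane-derived Mmp23 were called lower, with log2 changes of -1.68, -1.50, -1.27 and -1.49. Mmp23 went from 94.2 and 97.9 TPM to 36.6 and 30.8. Mmp27 reached 1.83 TPM in PBS 2 and was not tested, and Mmp1, Mmp1b, Mmp24 and Mmp28 stayed below 1 TPM. The Mmp7 call ended without SyMSC 1 (limma adjusted p = 0.0519).

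Of 6 inhibitor genes tested 2 were called higher and 4 lower by limma, against 23.7% and 24.7% of all tested genes. Timp1, a secreted inhibitor of most of these enzymes, rose from 1159 and 993 TPM in PBS 1 and PBS 2 to 3905 and 4155 in AdMSC 1 and SyMSC 1 (log2 change 1.91, SE 0.14, limma adjusted p = 0.000375). Timp2 fell from 956 and 912 to 583 and 508 TPM (-0.78), Timp3, which binds the matrix, from 209 and 222 to 65.2 and 35.0 TPM (-2.15) and Timp4 from 19.9 and 32.8 to 2.39 and 2.07 TPM (-3.04). Reck, a membrane-anchored inhibitor, fell from 33.6 and 34.3 to 9.46 and 6.72 TPM (-1.96), and Tfpi2 rose from 7.34 and 5.21 to 19.2 and 17.3 TPM (1.42). A2m, a plasma protease trap, stayed at or below 1.72 TPM. Timp1 outnumbered Timp2 by 6.69 and 8.18 to 1 after injection and by 1.21 and 1.09 to 1 with PBS. Mmp3 rose nearly in step with Timp1, with 0.667 and 0.628 Mmp3 transcripts for each Timp1 transcript after injection and 0.512 and 0.554 with PBS. Summed TPM of the 10 members over that of the 4 Timp genes was 0.905 (AdMSC 1), 0.869 (SyMSC 1), 1.47 (PBS 1) and 1.33 (PBS 2). For these sums there were more Timp transcripts for each enzyme transcript after injection. The arms did not overlap (exact two-sided permutation p = 0.333, the smallest possible). The member sum includes Mmp2, which fell from 2261 and 1931 TPM in PBS 1 and PBS 2 to 770.2 and 611 in AdMSC 1 and SyMSC 1. For Mmp3 alone the ratio to Timp1, given above, was higher in both injected libraries, and Timp2, Timp3 and Timp4 fell.

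**Figure D4:**
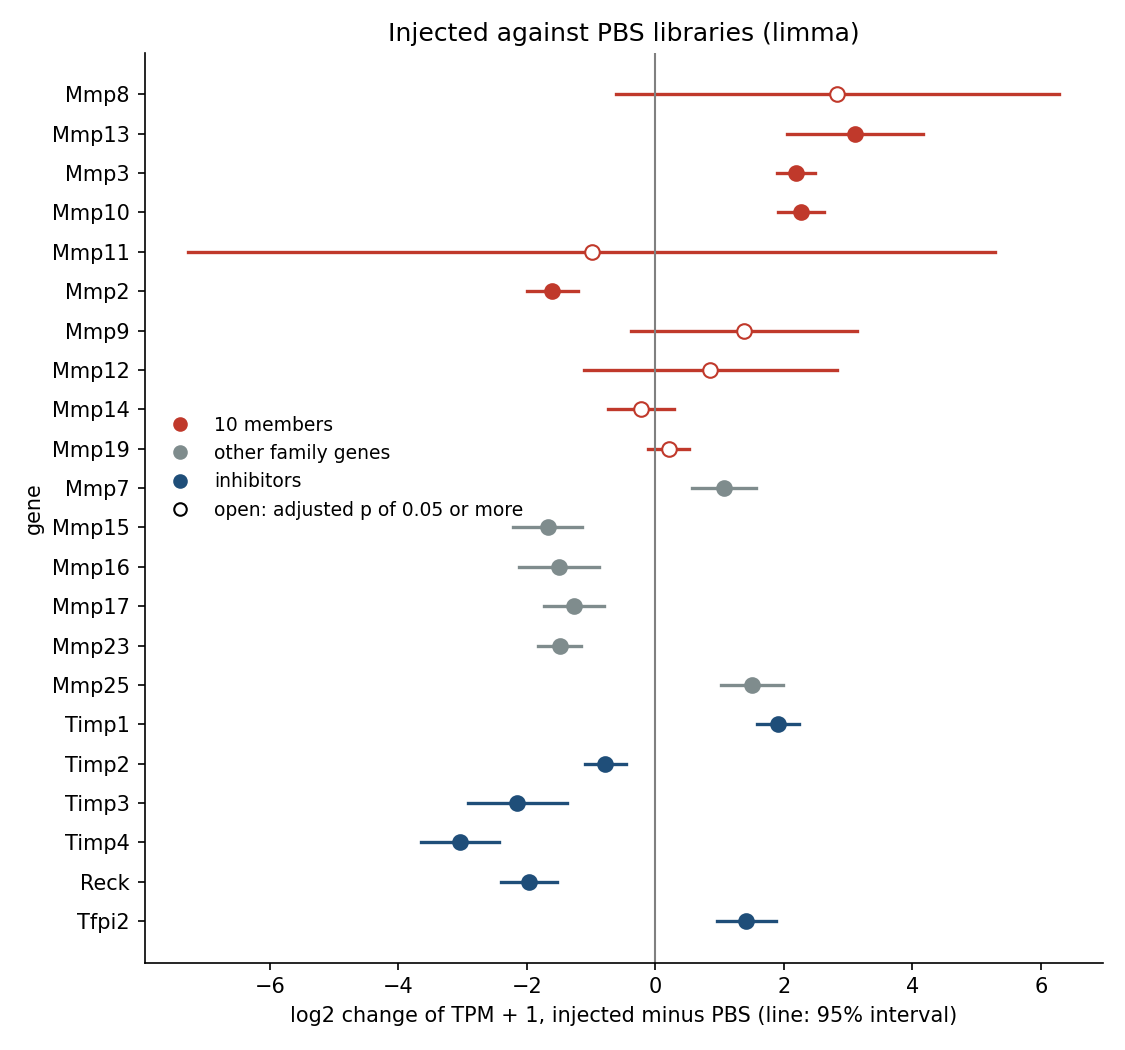
Log2 change of TPM + 1, injected minus PBS (x axis), for the 10 members (red), 6 other family genes (grey) and 6 inhibitor genes (blue). Points are limma estimates, lines their 95% intervals, and open points have an adjusted p of 0.05 or more. Mmp13, Mmp10 and Mmp3 lie at 3.11, 2.26 and 2.19, Mmp2 at -1.60, and Mmp11 has the widest interval.

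Activators and surface partners were called higher in 6 of 15 tested cases and lower in 2 by limma. Of all tested genes 48.4% were called (23.7% higher, 24.7% lower), so the calls of this list are near the background. Plaur, the urokinase receptor that focuses plasmin formation at the cell surface, stood at 1.87 on the log2 scale, Furin, the convertase that activates Mmp14 and Mmp11, at 1.54, and the integrin gene Itgb3 at 1.50. The convertase gene Pcsk6 stood at -2.54. Genes for cytokines and transcription factors known to induce metalloproteinases were called higher in 13 of 23 cases and lower in 1. The largest changes were those of Osm (5.10), Il1b (4.18) and Il6 (4.13), all cytokines, and the transcription factor gene Cebpb (3.50). Limma no longer called Il1b without PBS 1 (adjusted p = 0.12) or PBS 2 (0.0968), or Cebpb without AdMSC 1 (0.0645) or SyMSC 1 (0.0964). Of the 7 genes for AP-1 subunits, a group chosen after their values were seen, 3 were called higher and 4 did not pass: higher were Fosl1 (2.73), Fosl2 (2.30) and Junb (1.84). Fos stood at 278, 635, 180.2 and 522 TPM in AdMSC 1, SyMSC 1, PBS 1 and PBS 2, higher in both Sy-titled libraries, and did not pass (limma adjusted p = 0.672). Matrix proteins that these enzymes cut were called lower in 13 of 19 cases and higher in 2. Fmod, a collagen-binding proteoglycan, stood at -3.49, Comp at -3.23 and elastin (Eln) at -3.09, while Spp1, the secreted protein osteopontin, stood at 5.32. The Eln call ended without PBS 1 (limma adjusted p = 0.0513) or PBS 2 (0.0638).

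The cell sources could be compared 1 library with 1, without a test. The rule was a 2-fold or larger ratio of TPM + 1, with 5 TPM or more in the higher library. In AdMSC 1 against PBS 1, 4 members were listed as higher (Mmp8, Mmp13, Mmp3 and Mmp10) and 2 as lower (Mmp2 and Mmp11), where 18.9% of all tested genes were listed (9.0% higher, 9.89% lower). In SyMSC 1 against PBS 2, 5 were listed as higher (Mmp8, Mmp13, Mmp3, Mmp10 and Mmp9) and 1 as lower (Mmp2), against 22.6% (10.4% higher, 12.2% lower). Ratios were alike in the pairs for Mmp3 (4.38 and 4.73) and Mmp10 (4.17 and 5.52), and further apart for Mmp13 (5.10 and 14.6), Mmp9 (1.20 and 5.63) and Mmp8 (2.003 and 25.3). SyMSC 1 exceeded AdMSC 1 4.73-fold for Mmp8 and 2.55-fold for Mmp9, and AdMSC 1 exceeded SyMSC 1 2.41-fold for Mmp12. These 3 members were listed where 1.65% of tested genes were (1.1% higher in SyMSC 1, 0.546% lower). Between the PBS libraries 3 members were also listed, all higher in PBS 1: Mmp11, Mmp8 (2.67-fold) and Mmp12 (2.22-fold), against 1.7% of tested genes (0.725% higher in PBS 2, 0.972% lower). Mmp8 and Mmp12 thus differed by more than 2-fold between libraries of the same treatment, and nothing here tells a difference between the cell sources from a difference between libraries.

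**Figure D5:**
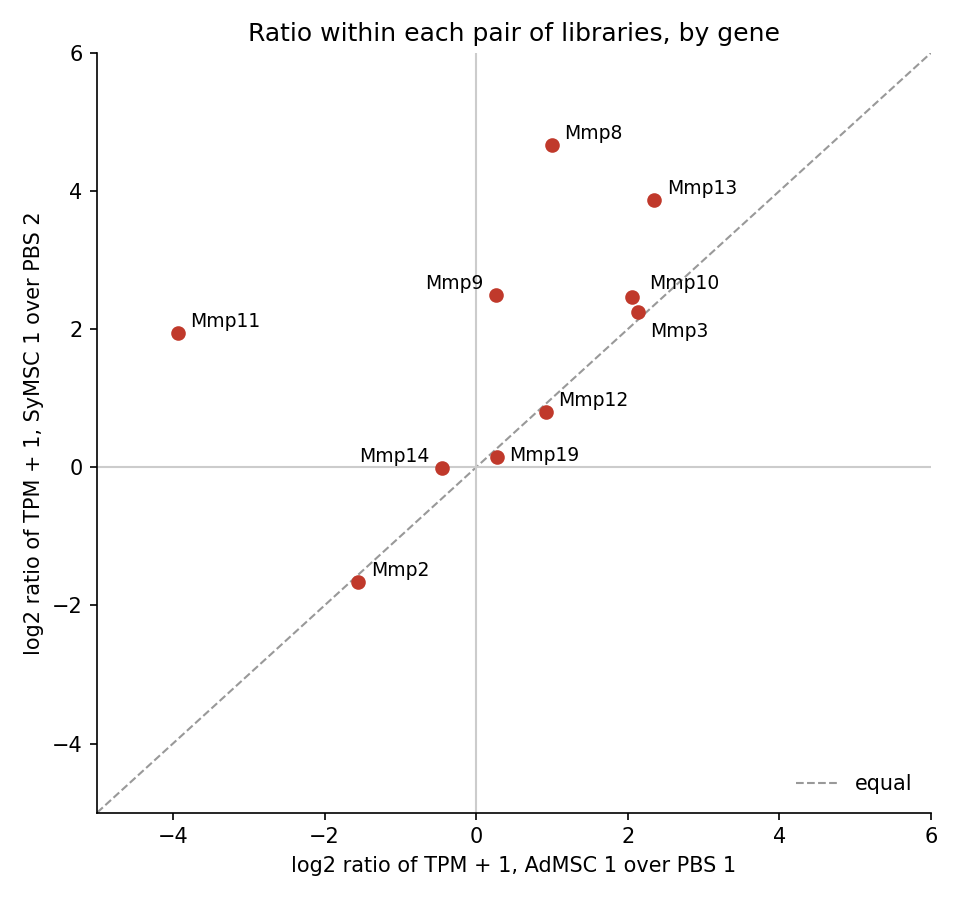
Log2 ratio of TPM + 1 for AdMSC 1 over PBS 1 (x axis) and SyMSC 1 over PBS 2 (y axis), 1 point per gene; the dashed line marks equal ratios. Mmp2, Mmp3, Mmp10, Mmp12 and Mmp19 lie near the line, Mmp8 and Mmp9 well above it, and Mmp11 at -3.93 and 1.95.

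For the most abundant member of each class the nearest profiles over the 4 libraries were sought, as the distance between centred log2(TPM + 1) values among genes with a mean of at least 5 TPM and a range of at least 1 on that scale. Closest to Mmp3 were Tlr13 (distance 0.06; 112, 115, 25.7 and 22.5 TPM in AdMSC 1, SyMSC 1, PBS 1 and PBS 2) and Il21r (0.06). Closest to Mmp2 were Vkorc1 (0.05; 259, 199.9, 736 and 654 TPM) and Slc4a3 (0.07). Closest to Mmp13 were Slfn4 (0.35) and Lilra3 (0.40). Mmp14 itself ranged over only 0.60, so the minimum range left out profiles as flat as its own, and no gene is named for it. With 4 libraries many genes share such a profile, and the distances are a description.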

How the data were processed

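Messenger RNA was measured in 4 bulk libraries (AdMSC 1, SyMSC 1, PBS 1 and PBS 2) of rat synovium, grouped by the treatment label. The values are TPM deposited by the authors, per the file headers, and each column has the same sum over 17899 rat genes; TPM keeps no depth, so intervals for counting error are not given. Per the labels' protocols, libraries were made from poly(A) RNA with a dUTP-marked second strand. The submitters' processing notes name HISAT2 2.0.4 and the build Rnor_6.0. The counter, its use of strand and any step that set human reads apart from rat ones are not stated in the sources used here. What human transcripts, of the injected cells or otherwise, added to the values of any library was not tested. Between 12582 and 13155 genes reached 1 TPM.

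The 13371 genes that reached 1 TPM in 2 or more libraries, all 10 members among them, entered 1 fit with limma 3.58.1 (R 4.3.3) on log2(TPM + 1). It used the trend and robust settings, compared 2 injected with 2 PBS libraries (2 residual degrees of freedom) and adjusted p by Benjamini-Hochberg over the whole table. The fit was also run on simulated data, with independent errors and residual spreads shuffled across genes. That setting differs from these data, and no result here rests on it. For 5 rows that repeated a symbol, the more abundant row was used. RefSeq sequences and gene order are of GRCr8, not the authors' build; all 10 gene IDs matched. The members and gene lists were chosen with earlier results of these data known. All members and inhibitors were named, other family genes from 1 TPM upwards, and from other lists up to 4 called genes with the largest change.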

Additional observations from a re-analysis of the deposited data

Results flagged for a closer look

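Mmp11 moved in opposite directions in the title pairs: the log2 ratio of TPM + 1 was -3.93 for AdMSC 1 against PBS 1 and 1.95 for SyMSC 1 against PBS 2. Each direction rests on 1 library against 1, and the difference was not tested. The gene was listed at 0 in AdMSC 1, and 3 of the 4 libraries held less than 5 TPM.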

How the results depend on the processing

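The alternatives for injected against PBS were scaling by median ratio (RLE) or upper quartile, a fit to all genes above 0, 0.1 added in place of 1, a replicate block for the title arm, 3 groups, and each library left out in turn. Mmp3, Mmp10, Mmp13 and Mmp2 kept direction and call under all 10. Their log2 changes ranged from 2.13 to 2.24, 2.11 to 2.42, 2.62 to 3.59 and -1.77 to -1.44. Calls were gained for Mmp9 in the 3-group fit and without AdMSC 1, and for Mmp12 (0.86, adjusted p = 0.00845) with the replicate block. The block called 5 members and 6590 genes, against 4 and 6476, and changed no other member's call. The libraries share a title word and nothing in the labels says that it marks a shared animal; deviations within a title arm correlated at 0.117 across genes. Leaving out 1 library called between 4590 and 5379 genes and 4 or 5 members; the lone library of an arm is then assumed to vary like the others. Changes of sign were seen for Mmp11 without AdMSC 1 (0.03) or PBS 1 (0.93), within a range of -2.91 to 0.93 over the libraries left out, and for Mmp14 without PBS 1 (0.0701; range -0.52 to 0.0701); the cause was not tested. With a ratio of at least 3 in place of 2, 1158 genes were listed in place of 2527 for AdMSC 1 against PBS 1, 1598 in place of 3021 for SyMSC 1 against PBS 2, 56 in place of 220 for SyMSC 1 against AdMSC 1 and 108 in place of 227 for PBS 2 against PBS 1. By construction a higher ratio lists fewer genes. At that ratio 1 member was listed between the injected libraries (Mmp8) and 1 between the PBS libraries (Mmp11). Read depth is unknown, so the imprecision of low values such as those of Mmp11 cannot be given.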
